A study of Mus musculus with 18 samples.

Results

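The mitosis genes are 44 mouse genes whose products carry a cell from G2 through chromosome separation to the end of cytokinesis. They were taken from a list of gene symbols, with no threshold on a measured value, after the versioned Ensembl IDs of the count files were mapped to symbols with GENCODE M21. All 44 were found among the 55536 gene IDs, and all 44 were among the 28334 genes with enough counts to be tested. They fall by role into 5 genes of the CDK and cyclin engine, 9 mitotic kinases and checkpoint genes, 10 kinesins and spindle genes, 7 kinetochore and centromere genes, 6 chromosome structure genes and 7 genes of proteolysis and mitotic exit.

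RNA came from bone marrow cells of BALB/c mice after 4 days in culture, sequenced in bulk as 18 poly(A) libraries. The marrow was labelled Cysltr1-/- (a deficiency of the type 1 cysteinyl leukotriene receptor) or wild type (WT). Each of 6 groups held 3 libraries, and for each library the marrow of 3 mice was pooled. The cultures of each genotype held GM-CSF with EMT6 conditioned medium (50% by volume, conditioned for 24 h by EMT6, a line of mouse mammary carcinoma cells), GM-CSF with IL-6, or GM-CSF alone. GM-CSF, a growth factor of granulocytes and macrophages, was at 40 ng/mL throughout and so was shared by all 6 groups, and IL-6 was also at 40 ng/mL. The label gives the genotype of the mice without an allele or a cell type of deletion. Nothing in the labels says that the 3 pools of a group held separate mice, so p-values measure the spread between these samples.

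Entry into mitosis is driven by CDK1 bound to cyclin B, which the phosphatase CDC25C activates and which Aurora and Polo-like kinases assist. Kinesins and microtubule-binding proteins build the spindle, kinetochores attach chromosomes to it, and the checkpoint kinases hold the anaphase-promoting complex in check until attachment is complete. That ubiquitin ligase, activated by CDC20, then marks securin and cyclin B for destruction, and separase opens the cohesin rings. Most of these genes are transcribed in G2 and M phase, under repression by the DREAM complex in resting cells and activation by B-MYB and FOXM1 in cycling ones. In marrow the transcripts mark dividing progenitors and myelocytes, while mature neutrophils have left the cycle.

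Libraries held 9583728 to 31989342 counts in annotated genes, the EMT6 medium libraries being the shallowest on average. Reads outside annotated features were 50.2% ± 0.152 of reads in Cysltr1-/- and 36.2% ± 1.39 in WT cultures with EMT6 medium (SD, n = 3 each), against group means of 14.2% to 19.5% elsewhere. The transcript of Cysltr1 showed no loss in libraries carrying the Cysltr1-/- label. With EMT6 medium these had 96 to 122 counts of it, and WT libraries 68 to 83. Under IL-6 the ranges were 1867 to 1994 counts in Cysltr1-/- and 1575 to 1981 in WT libraries, while GM-CSF alone gave 1271 to 1904 in Cysltr1-/- and 915 to 1718 in WT libraries. Counts over a whole gene do not check a deleted exon or an inserted cassette, so the genotype is used as labelled. Myeloid markers were present in every library, among them S100a9, Mpo and Csf1r, while the erythroid genes Hbb-bt and Car1 were at 0 in 3 and 2 libraries.

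Most promoters of the mitosis genes held a sequence feature that the choice by symbol did not use. The cell cycle homology region (CHR), the DNA element bound by the DREAM and B-MYB complexes, reads TTTGAA or, more rarely, TTCGAA. RefSeq promoters of build GRCm38.p6, from 250 bases before to 50 bases after the start, were at hand for 37 of the 44 genes. On either strand 30 of the 37 (81.1%) held a CHR, against 24.3% of 37 promoters of genes of the G1/S transition and DNA replication and 21.7% of all 27025 promoters. In 27 of the 37 a CHR lay within 50 bases of the start. In the 250 bases before the start alone, a CHR was found in 43.2% of mitosis promoters, 21.6% of G1/S promoters and 19.6% of all promoters. CCAAT boxes were found in 75.7% of mitosis promoters, 62.2% of G1/S promoters and 41.1% of all promoters, and a CHR together with a CCAAT box in 70.3%, 16.2% and 8.61%. Before the start alone, a CHR together with a CCAAT box was in 37.8% of mitosis promoters, 16.2% of G1/S promoters and 7.00% of all promoters. The E2F core GCGGGAA or GCGCGAA was found in 8.11% of mitosis promoters, 62.2% of G1/S promoters and 6.86% of all promoters. Both strands were searched for each motif, and TTCGAA is its own reverse complement. A match describes these letters only and shows no binding.

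The 120 bases before the start are printed for genes whose levels carry the results below, in lower case with CHR and CCAAT motifs, on either strand, in capitals. Cdk1, Top2a and Ube2c are genes that were lower with EMT6 medium in both genotypes on the TMM scale explained below (higher in Cysltr1-/- marrow by library sizes alone), Cdc20 and Espl1 were higher with it in Cysltr1-/- marrow, and Kif11 was the member lowered most by EMT6 medium against IL-6 in WT marrow. Pttg1, which rose with EMT6 medium in both genotypes, is shown as an example of a window with neither motif. That window, set by the RefSeq start, lies wholly inside the Pttg1 gene of GENCODE M21, which begins at 43426251 on the minus strand. It therefore does not describe the bases before that start. The windows of Cdk1, Cdc20, Ube2c and Espl1 also reach into their GENCODE M21 genes. For Cdk1, Ube2c and Espl1 the CHR nearest the RefSeq start lies inside the GENCODE gene.
Cdk1 (chr10:69352913-69353032, minus strand): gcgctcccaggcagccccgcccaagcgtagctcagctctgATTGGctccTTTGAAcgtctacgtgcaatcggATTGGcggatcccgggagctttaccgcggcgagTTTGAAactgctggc
Top2a (chr11:99024190-99024309, minus strand): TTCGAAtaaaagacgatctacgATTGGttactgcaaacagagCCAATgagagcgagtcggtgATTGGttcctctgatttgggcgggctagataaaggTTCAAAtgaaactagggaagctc
Ube2c (chr2:164769809-164769928, plus strand): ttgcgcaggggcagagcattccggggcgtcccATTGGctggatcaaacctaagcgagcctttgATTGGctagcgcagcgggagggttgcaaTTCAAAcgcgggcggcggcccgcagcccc
Kif11 (chr19:37376262-37376381, plus strand): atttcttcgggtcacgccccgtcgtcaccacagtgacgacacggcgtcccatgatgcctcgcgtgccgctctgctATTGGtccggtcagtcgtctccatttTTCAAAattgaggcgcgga
Cdc20 (chr4:118437344-118437463, minus strand): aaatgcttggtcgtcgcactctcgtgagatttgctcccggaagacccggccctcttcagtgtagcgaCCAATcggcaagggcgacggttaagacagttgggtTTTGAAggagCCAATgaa
Espl1 (chr15:102296173-102296292, plus strand): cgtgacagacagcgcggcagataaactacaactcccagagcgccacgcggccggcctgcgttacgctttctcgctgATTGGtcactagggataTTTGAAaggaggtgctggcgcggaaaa
Pttg1 (chr11:43425982-43426101, minus strand): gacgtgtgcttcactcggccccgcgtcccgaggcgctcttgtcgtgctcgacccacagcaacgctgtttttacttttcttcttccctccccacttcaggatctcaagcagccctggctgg

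The summed level of the 44 genes was highest in WT cultures under GM-CSF alone. Levels are CPM, counts scaled to a common library size, by effective library sizes from TMM, a scaling that assumes most genes are unchanged. With EMT6 medium the sum was 1569.6 ± 5.52 CPM in Cysltr1-/- and 1732 ± 29.1 CPM in WT cultures (SD, n = 3 each). With IL-6 it was 1001 ± 15.3 CPM in Cysltr1-/- and 1956 ± 41.5 CPM in WT cultures. Under GM-CSF alone it was 1331 ± 17.7 CPM in Cysltr1-/- and 3144 ± 63.9 CPM in WT cultures, so the Cysltr1-/- sum was 42.3% of the WT sum there, 51.2% with IL-6 and 90.6% with EMT6 medium. No 2 of the 6 groups overlapped in their 3 summed values.

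By library size alone the sums were 2200.1 ± 5.87 CPM in Cysltr1-/- and 2056 ± 34.3 CPM in WT cultures with EMT6 medium. With IL-6 they were 930.1 ± 4.67 CPM in Cysltr1-/- and 1641 ± 7.46 CPM in WT cultures, and under GM-CSF alone 1218 ± 6.87 CPM in Cysltr1-/- and 2646 ± 45.6 CPM in WT cultures. The place of the EMT6 medium groups therefore depends on the scaling, while the order of the other 4 groups did not. Replacing TMM by library sizes moved the median of all tested genes by 0.49 to 0.61 (log2) in comparisons of EMT6 medium with another culture. The same change moved it by 0.12 and 0.14 between genotypes under GM-CSF and IL-6, by 0.24 between genotypes with EMT6 medium and by less than 0.1 for IL-6 in either genotype.

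**Figure D1:**
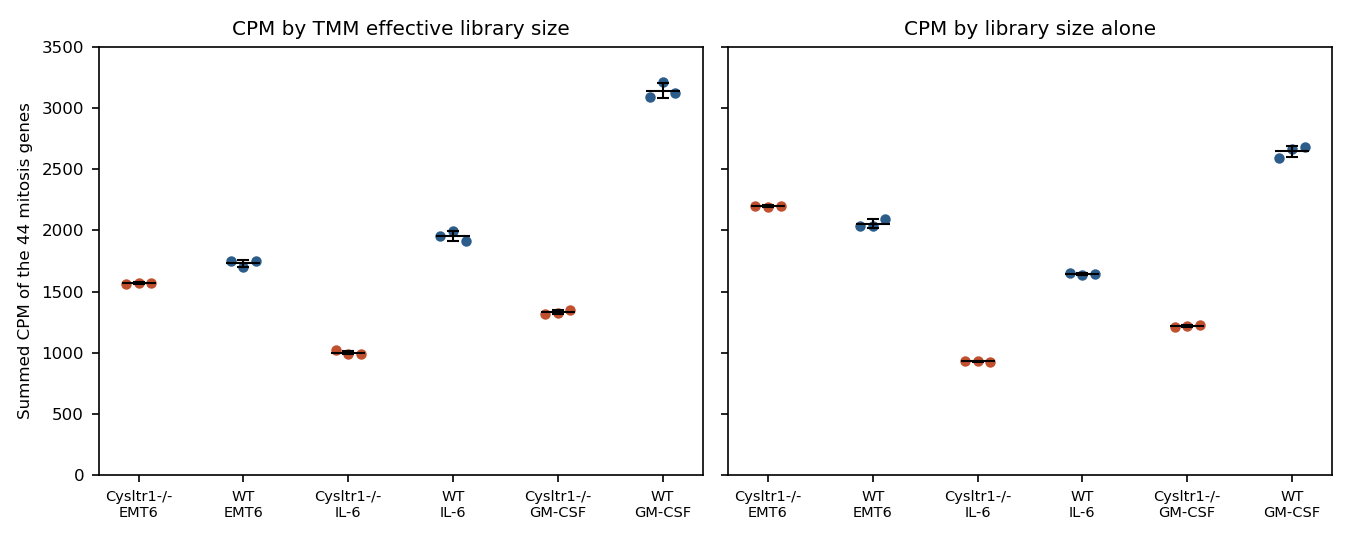
Summed CPM of the 44 mitosis genes per library (points), with the group mean and SD (lines), by TMM effective library size on the left and by library size alone on the right, for the groups named on the axis. WT cultures under GM-CSF alone average 3143.9 CPM on the left and 2645.5 CPM on the right, above every other group, while the EMT6 medium groups change place between the panels.

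In 42 of the 44 genes the highest group mean was that of WT under GM-CSF alone. Pttg1 peaked in WT cultures with EMT6 medium and Cdc25c in Cysltr1-/- cultures with EMT6 medium. The lowest group mean was that of Cysltr1-/- with IL-6 in 43 genes, and for Cenpa that of Cysltr1-/- under GM-CSF. Per kilobase of exon, the level in WT cultures under GM-CSF alone ran from 2.24 CPM for Cdc25c to 49.0 CPM for Smc4, with a median of 11.2 CPM. Because these are bulk samples, fewer dividing cells and less of these RNAs in each dividing cell cannot be told apart.

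All 44 mitosis genes were lower in Cysltr1-/- than in WT marrow under GM-CSF alone (edgeR quasi-likelihood test, Benjamini-Hochberg adjusted p under 0.05), where 17.2% of all tested genes were called lower and 10.1% higher. Of the 44, 39 were lower by at least 2-fold. Their median log2 fold change of -1.36 compares with -0.09 over the 11170 tested genes with a mean of at least 5 CPM, of which 38.3% lower and 17.8% higher were called. With IL-6 present 43 were lower in Cysltr1-/- marrow (as were 18.4% of all tested genes, with 12.1% higher, and 42.2% lower and 11.9% higher among those of at least 5 CPM), with a median of -1.05 and 25 of them by at least 2-fold. Cdc25c was not called there. Libraries of the 2 genotypes did not overlap for any of the 44 genes in either culture, Cysltr1-/- being lower. Over all tested genes every Cysltr1-/- library was lower for 20.6% and higher for 16.6% under GM-CSF alone, and lower for 22.9% and higher for 20.9% with IL-6.

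IL-6 lowered 41 of the 44 genes in Cysltr1-/- marrow, where 8.78% of all tested genes were called lower and 5.55% higher, with a median log2 fold change of -0.48. In WT marrow it lowered 43 (as it did 11.3% of all tested genes, with 10.4% higher), with a median of -0.76. No member was called higher with IL-6 in either genotype, also at an unadjusted p under 0.05 and with DESeq2. Of genes with a mean of at least 5 CPM, 20.4% lower and 11.3% higher were called with IL-6 in Cysltr1-/- marrow (median -0.04), and 24% lower and 23.3% higher in WT marrow (median 0.01). Cenpa, Bub1 and Cdc25c were not called in Cysltr1-/- marrow, and Ndc80 was not called in WT marrow.

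With EMT6 medium more mitosis genes were higher than lower in Cysltr1-/- marrow, and nearly all were lower in WT marrow, on the TMM scale. In Cysltr1-/- marrow 8 were called lower and 26 higher than under GM-CSF alone, among 32.9% and 54.3% of all tested genes, with a median log2 fold change of 0.33. The 26 that rose are near the share of all genes, whose median was 0.83. By library sizes alone all 44 were higher and 0 lower (median 0.94). On that scale 19203 of the 28334 tested genes were higher and 5574 lower (median 1.44), so the median member rose less than the median gene. With DESeq2 size factors 21 members were higher and 15 lower (median 0.06), among 13956 and 10667 of all tested genes (median 0.56). In WT marrow 42 were called lower and 2 higher, among 34.5% and 46.8% of all tested genes, with a median of -0.88. By library sizes alone 30 were lower and 6 higher there, among 6083 lower and 17317 higher of the 28334 tested genes (median 0.98). Of genes with a mean of at least 5 CPM, 70.4% lower and 19.3% higher were called with EMT6 medium in Cysltr1-/- marrow (median -0.64), and 73.1% lower and 16.5% higher in WT marrow (median -0.59). These shares depend on the genes fitted. In a fit of only the 14441 genes of at least 5 CPM in some group, 6524 were lower and 6379 higher in Cysltr1-/- marrow (median -0.02). In WT marrow 6056 were lower and 6338 higher in that fit (median 0.01). Reads in annotated exons that the density of reads outside them would give made up a median of 10.6% of the counts of the 44 genes in Cysltr1-/- and 4.70% in WT cultures with EMT6 medium, with Cenpf at most in both (56.5% and 26.7%). With those reads subtracted 31 were higher and 2 lower in Cysltr1-/- and 3 higher and 39 lower in WT marrow. Of the 22390 genes tested in that fit, 9528 were higher and 9226 lower in Cysltr1-/-, and 8463 higher and 8825 lower in WT marrow. The count of 8 lower in Cysltr1-/- marrow became 13 to 15, and the median of 0.33 became 0.06 to 0.12, without WT GM-CSF replicate 1, 2 or 3, WT EMT6 replicate 1, Cysltr1-/- GM-CSF replicate 1, 2 or 3, or Cysltr1-/- EMT6 replicate 1, 2 or 3.

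**Figure D2:**
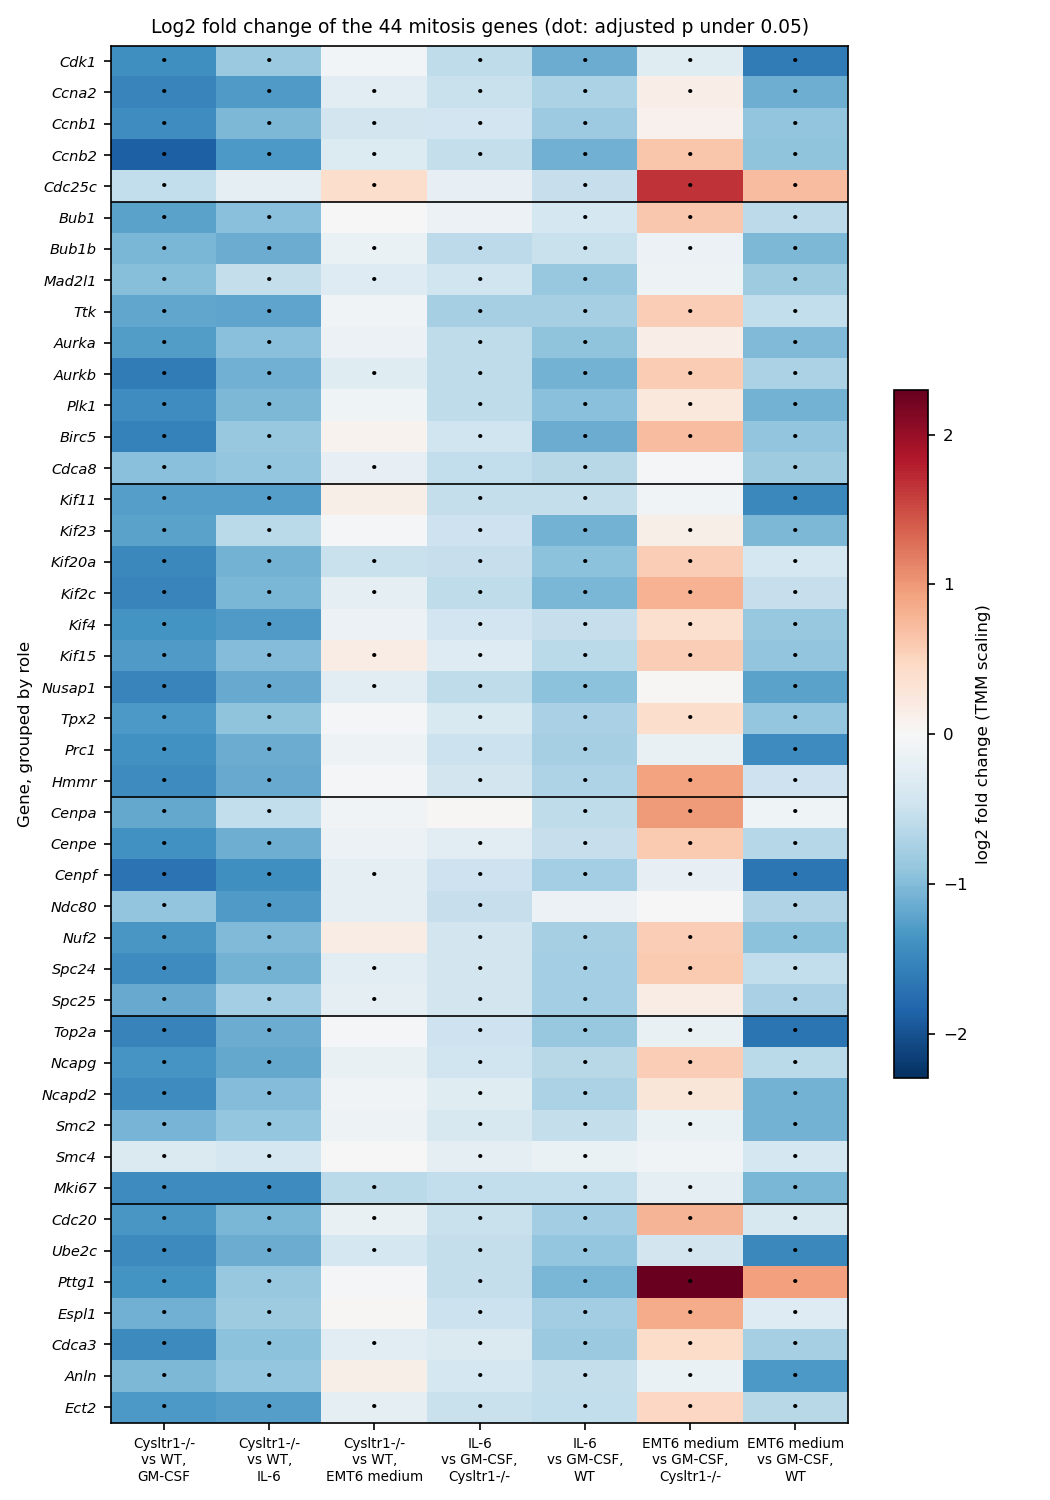
Log2 fold change (TMM scaling) of each mitosis gene, grouped by role, in 7 comparisons; a dot marks an adjusted p under 0.05 (edgeR). The genotype columns under GM-CSF and IL-6 are below 0 for all 44 genes, and the columns for EMT6 medium differ between Cysltr1-/- marrow, with 26 higher and 8 lower by TMM and 44 higher by library sizes alone, and WT marrow, with 2 higher and 42 lower by TMM and 6 higher and 30 lower by library sizes alone. By TMM 54.3% of all tested genes were higher in Cysltr1-/- and 46.8% in WT marrow. By library sizes alone 19203 of the 28334 tested genes were higher in Cysltr1-/- and 17317 in WT marrow.

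Summed over the 5 genes of the CDK and cyclin engine, the Cysltr1-/- level under GM-CSF alone was 35.3% of the WT level. Cdk1, the kinase of mitotic entry, was at 22.4, 21.2 and 26.1 CPM in Cysltr1-/- and 24.2, 25.3 and 23.5 CPM in WT cultures with EMT6 medium. With IL-6 Cdk1 was at 18.7, 17.8 and 19.6 CPM in Cysltr1-/- and 34.5, 32.0 and 34.5 CPM in WT cultures, and under GM-CSF alone at 27.0, 29.6 and 27.1 CPM in Cysltr1-/- against 72.5, 75.8 and 73.9 CPM in WT cultures. The genotypes overlapped in EMT6 medium and in neither other culture. Under GM-CSF the log2 fold change was -1.40 ± 0.06 (SE, edgeR adjusted p = 5.48e-23), and IL-6 in WT lowered Cdk1 by more than any other member (-1.14 ± 0.06, adjusted p = 6.16e-20). Ccnb2, a cyclin B, was at 32.5, 29.2 and 29.8 CPM in Cysltr1-/- and 36.8, 37.5 and 39.2 CPM in WT cultures with EMT6 medium, and at 20.4, 19.1 and 19.3 CPM in Cysltr1-/- against 68.1, 73.2 and 75.3 CPM in WT cultures under GM-CSF alone. Its genotype difference under GM-CSF was the largest of the 44 (-1.88 ± 0.06, 3.68-fold lower, edgeR adjusted p = 5.83e-27).

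Ccnb1, the other main cyclin B, had 9.70, 9.87 and 12.1 CPM in Cysltr1-/- and 14.4, 16.0 and 11.7 CPM in WT cultures with EMT6 medium. With IL-6, Ccnb1 had 8.34, 6.55 and 6.94 CPM in Cysltr1-/- and 14.0, 16.3 and 14.3 CPM in WT cultures. Under GM-CSF alone, Ccnb1 had 9.30, 8.81 and 11.9 CPM in Cysltr1-/- and 28.1, 25.2 and 25.7 CPM in WT cultures. Ccnb1 thus overlapped between genotypes with EMT6 medium, and was lower in every Cysltr1-/- library with IL-6 and under GM-CSF alone. Ccna2, the cyclin A of S phase and G2, had 31.3, 30.7 and 30.7 CPM in Cysltr1-/- and 37.7, 36.6 and 35.6 CPM in WT cultures with EMT6 medium. With IL-6, Ccna2 had 19.4, 18.9 and 20.1 CPM in Cysltr1-/- and 46.4, 46.9 and 50.9 CPM in WT cultures. Under GM-CSF alone, Ccna2 had 27.8, 27.6 and 28.4 CPM in Cysltr1-/- and 75.4, 81.5 and 81.6 CPM in WT cultures. Every Cysltr1-/- value of Ccna2 was thus below every WT value of the same culture. The Ccna2 difference under GM-CSF was -1.51 ± 0.06 (edgeR adjusted p = 2.46e-25).

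Cdc25c is the phosphatase that activates CDK1. It was at 23.1, 23.7 and 24.5 CPM in Cysltr1-/- and 16.9, 18.7 and 18.4 CPM in WT cultures with EMT6 medium. With IL-6 it was at 6.82, 6.60 and 6.15 CPM in Cysltr1-/- and 7.04, 7.62 and 8.28 CPM in WT cultures. Under GM-CSF alone it was at 7.79, 7.31 and 7.23 CPM in Cysltr1-/- and 10.3, 11.6 and 11.2 CPM in WT cultures. The EMT6 medium libraries of either genotype were above all others. EMT6 medium raised Cdc25c over GM-CSF by 1.67 ± 0.09 (log2) in Cysltr1-/- and 0.71 ± 0.08 in WT marrow (edgeR adjusted p = 2.65e-21 and 4.95e-10). Its expected share of background reads was 11.2% in Cysltr1-/- and 8.18% in WT EMT6 medium libraries, and 12.7% of its exon bases lie over Gm3550 on the other strand.

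Among the mitotic kinases and checkpoint genes all 9 were lower in Cysltr1-/- marrow under GM-CSF and under IL-6. Aurkb, the kinase of the chromosomal passenger complex, had 27.2, 28.8 and 28.9 CPM in Cysltr1-/- and 35.1, 32.8 and 35.2 CPM in WT cultures with EMT6 medium. With IL-6, Aurkb had 12.4, 13.6 and 11.6 CPM in Cysltr1-/- and 26.8, 29.0 and 25.0 CPM in WT cultures. Under GM-CSF alone, Aurkb had 19.0, 18.6 and 19.0 CPM in Cysltr1-/- and 56.1, 57.1 and 58.0 CPM in WT cultures. For Aurkb every Cysltr1-/- library was below every WT library in all 3 cultures. Birc5, which encodes survivin in the same complex, had 26.6, 25.9 and 28.8 CPM in Cysltr1-/- and 24.6, 26.7 and 25.7 CPM in WT cultures with EMT6 medium. With IL-6, Birc5 had 11.6, 11.0 and 13.3 CPM in Cysltr1-/- and 21.8, 22.4 and 21.9 CPM in WT cultures. Under GM-CSF alone, Birc5 had 17.6, 16.0 and 15.8 CPM in Cysltr1-/- and 50.6, 43.7 and 50.1 CPM in WT cultures. Birc5 thus overlapped between genotypes with EMT6 medium, and was lower in every Cysltr1-/- library with IL-6 and under GM-CSF alone. Both fell under GM-CSF by about the same amount (-1.60 ± 0.06 for Aurkb and -1.55 ± 0.07 for Birc5, edgeR adjusted p = 2.34e-24 and 1.82e-22). Cdca8, which encodes borealin, the remaining listed subunit of that complex, averaged 37.6 ± 1.19 CPM in Cysltr1-/- and 72.9 ± 3.95 CPM in WT cultures under GM-CSF (SD, n = 3 each).

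Plk1, the Polo-like kinase, had 21.04, 19.5 and 20.6 CPM in Cysltr1-/- and 23.1, 19.8 and 22.1 CPM in WT cultures with EMT6 medium. With IL-6, Plk1 had 12.5, 11.6 and 10.7 CPM in Cysltr1-/- and 24.5, 23.2 and 23.8 CPM in WT cultures. Under GM-CSF alone, Plk1 had 17.8, 16.3 and 18.1 CPM in Cysltr1-/- and 46.3, 49.5 and 43.9 CPM in WT cultures. Values of Plk1 separated the genotypes with IL-6 and under GM-CSF alone, Cysltr1-/- being lower, and overlapped with EMT6 medium. Aurka, the kinase of spindle poles, had 23.2, 24.7 and 24.6 CPM in Cysltr1-/- and 26.2, 27.4 and 25.9 CPM in WT cultures with EMT6 medium. With IL-6, Aurka had 13.4, 15.5 and 14.6 CPM in Cysltr1-/- and 27.8, 28.7 and 27.8 CPM in WT cultures. Under GM-CSF alone, Aurka had 20.9, 20.6 and 24.2 CPM in Cysltr1-/- and 52.3, 50.8 and 56.5 CPM in WT cultures. For Aurka every Cysltr1-/- library was below every WT library in all 3 cultures. For both, the Cysltr1-/- libraries with IL-6 were the lowest of all 18. Their falls by genotype under GM-CSF were -1.42 ± 0.07 for Plk1 and -1.29 ± 0.06 for Aurka (edgeR adjusted p = 1.99e-21 and 5.94e-21).

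Bub1b, which encodes the checkpoint protein BUBR1, had 31.7, 32.9 and 31.6 CPM in Cysltr1-/- and 36.5, 34.4 and 35.8 CPM in WT cultures with EMT6 medium. With IL-6, Bub1b had 24.3, 23.4 and 21.6 CPM in Cysltr1-/- and 52.4, 50.7 and 48.8 CPM in WT cultures. Under GM-CSF alone, Bub1b had 34.9, 37.0 and 33.1 CPM in Cysltr1-/- and 70.9, 75.0 and 72.1 CPM in WT cultures. Bub1b libraries of the 2 genotypes were apart in each culture, those of Cysltr1-/- marrow being lower. Mad2l1, the checkpoint inhibitor of CDC20, had 20.1, 26.5 and 29.2 CPM in Cysltr1-/- and 30.4, 28.8 and 32.3 CPM in WT cultures with EMT6 medium. With IL-6, Mad2l1 had 20.2, 18.9 and 20.8 CPM in Cysltr1-/- and 28.6, 29.6 and 29.8 CPM in WT cultures. Under GM-CSF alone, Mad2l1 had 28.0, 26.0 and 28.0 CPM in Cysltr1-/- and 55.3, 50.7 and 54.6 CPM in WT cultures. Values of Mad2l1 separated the genotypes with IL-6 and under GM-CSF alone, Cysltr1-/- being lower, and overlapped with EMT6 medium. Ttk, the checkpoint kinase MPS1, had 4.93, 4.61 and 5.18 CPM with IL-6 against 8.77, 8.04 and 8.41 CPM under GM-CSF in Cysltr1-/- cultures. That was the largest fall with IL-6 among the members in that genotype (-0.77 ± 0.11, edgeR adjusted p = 5.21e-07). Bub1, the kinase that recruits checkpoint proteins to kinetochores, had 20.6, 20.1 and 20.8 CPM with IL-6 and 22.8, 22.0 and 22.4 CPM under GM-CSF alone in Cysltr1-/- cultures, a difference of -0.13 ± 0.07 that was not called.

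The 10 kinesins and spindle genes were all lower by genotype under GM-CSF and IL-6. Kif11, the bipolar kinesin that pushes spindle poles apart, had 25.1, 28.2 and 25.7 CPM in Cysltr1-/- and 21.5, 24.8 and 25.5 CPM in WT cultures with EMT6 medium. With IL-6, Kif11 had 18.8, 18.8 and 19.2 CPM in Cysltr1-/- and 47.6, 45.1 and 44.3 CPM in WT cultures. Under GM-CSF alone, Kif11 had 26.5, 28.1 and 28.7 CPM in Cysltr1-/- and 63.2, 69.0 and 68.1 CPM in WT cultures. For Kif11 the genotypes overlapped with EMT6 medium, and all Cysltr1-/- values were below the WT values in both other cultures. In WT marrow EMT6 medium left Kif11 below its level with IL-6 (log2 fold change -0.94 ± 0.06, edgeR adjusted p = 4.50e-17), the largest such difference among the members. Kif20a, a kinesin of the central spindle, had 20.98, 21.4 and 20.3 CPM in Cysltr1-/- and 31.3, 29.0 and 28.9 CPM in WT cultures with EMT6 medium. With IL-6, Kif20a had 9.08, 9.32 and 10.8 CPM in Cysltr1-/- and 20.8, 21.5 and 19.9 CPM in WT cultures. Under GM-CSF alone, Kif20a had 13.2, 14.7 and 14.4 CPM in Cysltr1-/- and 41.2, 37.6 and 39.9 CPM in WT cultures. Kif20a libraries of the 2 genotypes were apart in each culture, those of Cysltr1-/- marrow being lower. Its exons share 29.3% of their bases with Cdc23 on the other strand, so its counts are uncertain where the counting did not use strand.

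Kif23, which encodes a subunit of centralspindlin, had 26.5, 23.9 and 24.6 CPM with IL-6 and 33.8, 35.9 and 34.4 CPM under GM-CSF alone in Cysltr1-/- cultures, and 40.2, 38.2 and 36.6 CPM with IL-6 against 80.8, 83.8 and 80.3 CPM under GM-CSF alone in WT cultures. All IL-6 libraries were below their GM-CSF controls, by a larger ratio in WT. Kif15, which supports the bipolar spindle beside KIF11, had 23.7, 23.7 and 22.9 CPM in Cysltr1-/- and 21.9, 19.5 and 20.98 CPM in WT cultures with EMT6 medium. It was 1 of 2 members called higher by genotype there (0.17 ± 0.07, edgeR adjusted p = 0.0476), and the call was lost with DESeq2 size factors (0.06) and without any one of the 18 libraries (0.05 to 0.16). Kif2c, a kinesin that shortens microtubules, averaged 11.3 ± 0.299 CPM in Cysltr1-/- and 32.5 ± 1.08 CPM in WT cultures under GM-CSF alone (SD, n = 3 each). Hmmr, which binds spindle microtubules, averaged 17.7 ± 0.372 CPM in Cysltr1-/- and 48.3 ± 3.88 CPM in WT cultures, and Tpx2, the activator of Aurora A, 36.7 ± 0.861 CPM in Cysltr1-/- and 91.9 ± 3.00 CPM in WT cultures. The midzone bundler Prc1 averaged 18.1 ± 1.75 CPM in Cysltr1-/- and 47.5 ± 3.08 CPM in WT cultures, Nusap1 21.4 ± 0.373 CPM in Cysltr1-/- and 61.3 ± 1.58 CPM in WT cultures, and the chromokinesin Kif4 9.08 ± 1.14 CPM in Cysltr1-/- and 24.0 ± 1.77 CPM in WT cultures. Each of these Cysltr1-/- means was below its WT mean by more than either SD.

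**Figure D3:**
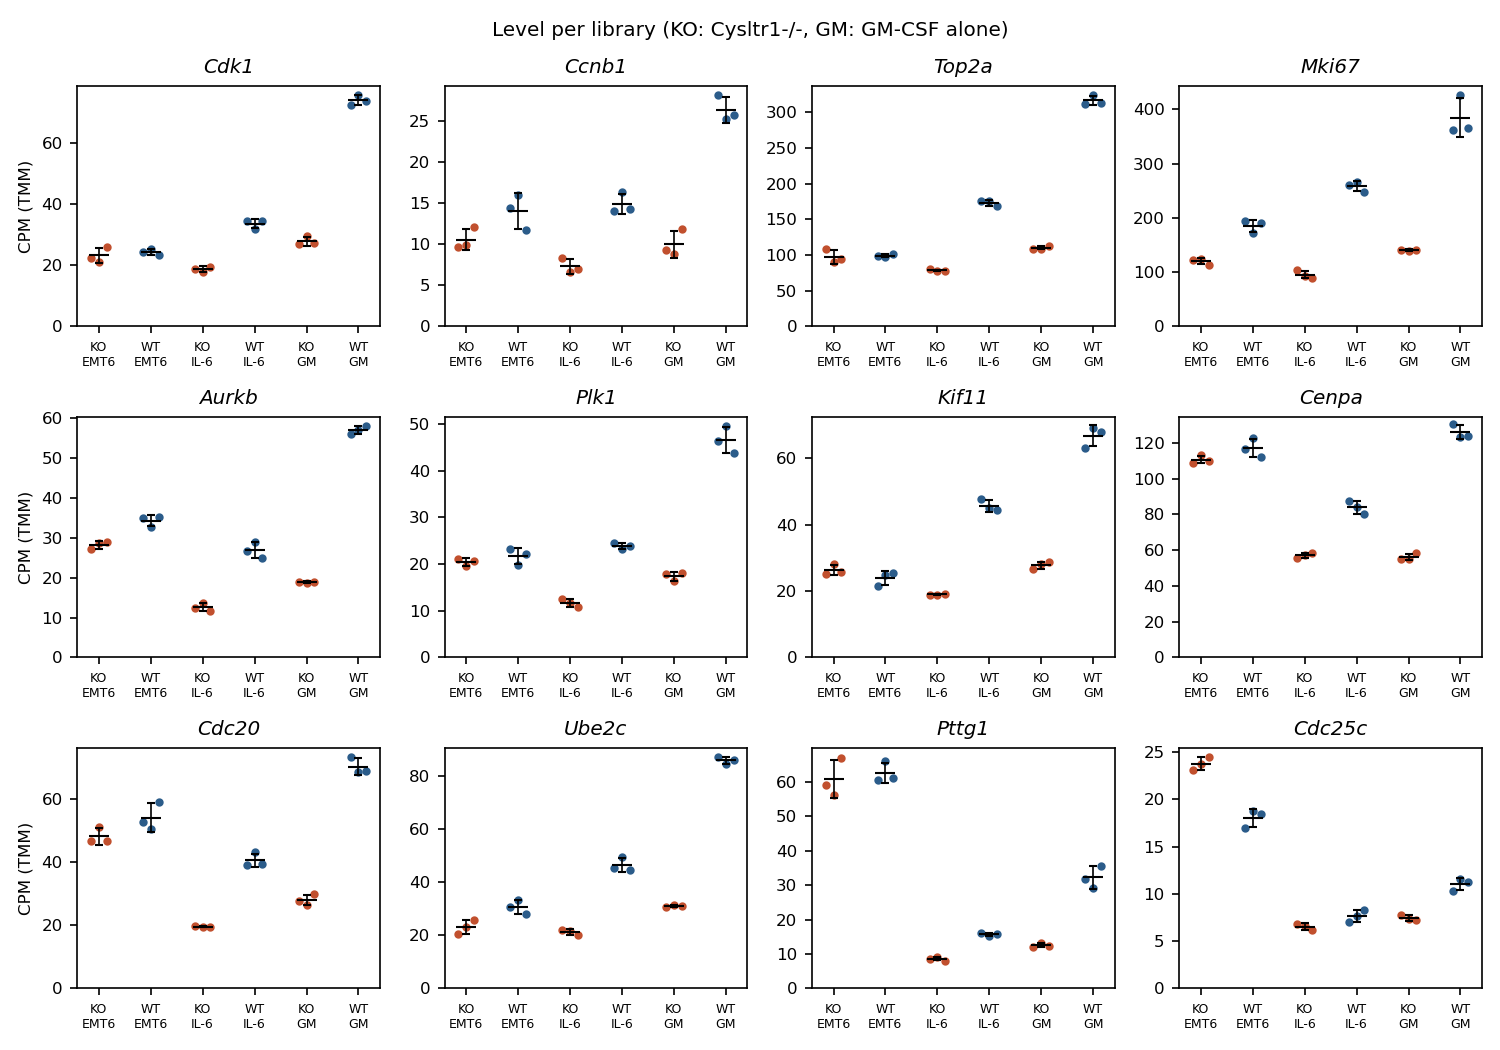
CPM (TMM scaling) per library of 12 mitosis genes in the 6 groups, with the group mean and SD as lines; KO stands for Cysltr1-/- and GM for GM-CSF alone. WT libraries under GM-CSF alone are highest except for Pttg1 and Cdc25c, whose EMT6 medium libraries are highest in both genotypes.

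Kinetochore and centromere genes were lower by genotype in all 7 cases under GM-CSF and under IL-6. Cenpa, the histone variant that marks centromeres, had 109, 113 and 110.0 CPM in Cysltr1-/- and 117, 122 and 112 CPM in WT cultures with EMT6 medium. With IL-6, Cenpa had 55.6, 57.1 and 58.2 CPM in Cysltr1-/- and 87.4, 84.0 and 80.3 CPM in WT cultures. Under GM-CSF alone, Cenpa had 55.2, 54.8 and 58.1 CPM in Cysltr1-/- and 131, 123 and 124 CPM in WT cultures. Values of Cenpa separated the genotypes with IL-6 and under GM-CSF alone, Cysltr1-/- being lower, and overlapped with EMT6 medium. In Cysltr1-/- cultures its level with IL-6 overlapped that under GM-CSF (0.03 ± 0.05, not called), while in WT cultures IL-6 lowered it (log2 fold change -0.59 ± 0.05, edgeR adjusted p = 4.41e-13). Cenpe, the kinetochore kinesin that aligns chromosomes, had 33.8, 30.9 and 30.9 CPM in Cysltr1-/- and 34.7, 33.7 and 36.6 CPM in WT cultures with EMT6 medium. With IL-6, Cenpe had 19.1, 17.0 and 16.9 CPM in Cysltr1-/- and 39.6, 39.3 and 36.9 CPM in WT cultures. Under GM-CSF alone, Cenpe had 21.2, 21.7 and 19.9 CPM in Cysltr1-/- and 53.2, 58.1 and 55.0 CPM in WT cultures. For Cenpe the genotypes overlapped with EMT6 medium, and all Cysltr1-/- values were below the WT values in both other cultures.

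Cenpf, a large kinetochore protein of G2 and mitosis, had 14.1, 14.4 and 15.9 CPM in Cysltr1-/- and 17.9, 16.8 and 17.0 CPM in WT cultures with EMT6 medium. With IL-6, Cenpf had 13.4, 11.5 and 11.2 CPM in Cysltr1-/- and 30.8, 34.0 and 30.6 CPM in WT cultures. Under GM-CSF alone, Cenpf had 15.3, 17.5 and 17.7 CPM in Cysltr1-/- and 51.7, 58.2 and 54.7 CPM in WT cultures. Cenpf libraries of the 2 genotypes were apart in each culture, those of Cysltr1-/- marrow being lower. It had the second largest fall by genotype under GM-CSF (-1.71 ± 0.07, 3.26-fold lower, edgeR adjusted p = 8.44e-24). Of its counts 56.5% in Cysltr1-/- and 26.7% in WT EMT6 medium libraries could come from background by the density outside exons. Ndc80, the kinetochore protein that binds microtubules, had 12.4, 13.4 and 13.3 CPM in Cysltr1-/- and 16.4, 13.7 and 14.6 CPM in WT cultures with EMT6 medium. With IL-6, Ndc80 had 9.12, 8.21 and 9.31 CPM in Cysltr1-/- and 20.6, 24.5 and 21.1 CPM in WT cultures. Under GM-CSF alone, Ndc80 had 11.7, 12.5 and 14.9 CPM in Cysltr1-/- and 23.9, 23.0 and 25.5 CPM in WT cultures. Every Cysltr1-/- value of Ndc80 was thus below every WT value of the same culture. It was the only member not called with IL-6 in WT (-0.14 ± 0.08, edgeR adjusted p = 0.240), where its IL-6 and GM-CSF libraries overlapped. Its partners in the NDC80 complex averaged 12.4 ± 1.00 and 31.3 ± 1.78 CPM for Nuf2, 6.36 ± 0.442 and 17.1 ± 0.899 CPM for Spc24 and 10.2 ± 0.284 and 22.5 ± 1.85 CPM for Spc25 in Cysltr1-/- and WT cultures under GM-CSF alone (SD, n = 3 each). All 4 genes of the complex were called lower in Cysltr1-/- marrow there.

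Of the chromosome structure genes, Mki67, which coats mitotic chromosomes and encodes the proliferation antigen Ki-67, showed the largest genotype difference with EMT6 medium. It had 123, 124 and 114 CPM in Cysltr1-/- and 194, 173 and 189.8 CPM in WT cultures with EMT6 medium. With IL-6, Mki67 had 103, 92.5 and 90.0 CPM in Cysltr1-/- and 261, 266 and 248 CPM in WT cultures. Under GM-CSF alone, Mki67 had 141, 139.6 and 142 CPM in Cysltr1-/- and 363, 426 and 365 CPM in WT cultures. For Mki67 every Cysltr1-/- library was below every WT library in all 3 cultures. The log2 fold changes of Mki67 by genotype were -0.63 ± 0.06 with EMT6 medium, -1.44 ± 0.06 with IL-6 and -1.45 ± 0.06 under GM-CSF (edgeR adjusted p = 7.73e-12, 6.42e-24 and 1.82e-24). Top2a, the topoisomerase that untangles sister chromatids, had 108, 90.0 and 94.1 CPM in Cysltr1-/- and 99.1, 96.6 and 102 CPM in WT cultures with EMT6 medium. With IL-6, Top2a had 79.7, 77.8 and 78.2 CPM in Cysltr1-/- and 176, 176 and 169 CPM in WT cultures. Under GM-CSF alone, Top2a had 109, 109 and 112 CPM in Cysltr1-/- and 312, 325 and 314 CPM in WT cultures. Top2a thus overlapped between genotypes with EMT6 medium, and was lower in every Cysltr1-/- library with IL-6 and under GM-CSF alone. EMT6 medium lowered Top2a in WT (log2 fold change -1.68 ± 0.05, edgeR adjusted p = 1.16e-29), the largest fall among the members there.

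Smc2, an ATPase of the condensin ring, had 32.9, 31.0 and 32.8 CPM in Cysltr1-/- and 35.1, 33.4 and 36.6 CPM in WT cultures with EMT6 medium. With IL-6, Smc2 had 26.4, 28.3 and 28.7 CPM in Cysltr1-/- and 53.2, 49.8 and 51.1 CPM in WT cultures. Under GM-CSF alone, Smc2 had 35.5, 35.6 and 36.6 CPM in Cysltr1-/- and 69.6, 74.7 and 80.0 CPM in WT cultures. Every Cysltr1-/- value of Smc2 was thus below every WT value of the same culture. Ncapd2, a regulatory subunit of condensin I, had 51.7, 46.3 and 47.7 CPM in Cysltr1-/- and 54.6, 44.5 and 54.4 CPM in WT cultures with EMT6 medium. With IL-6, Ncapd2 had 32.2, 31.3 and 35.7 CPM in Cysltr1-/- and 66.3, 67.9 and 64.2 CPM in WT cultures. Under GM-CSF alone, Ncapd2 had 41.6, 38.9 and 39.9 CPM in Cysltr1-/- and 110.3, 116 and 101 CPM in WT cultures. For Ncapd2 the genotypes overlapped with EMT6 medium, and all Cysltr1-/- values were below the WT values in both other cultures. Smc4, the other condensin ATPase, had the smallest genotype difference under GM-CSF. It had 194, 187 and 192 CPM in Cysltr1-/- and 195, 187 and 194 CPM in WT cultures with EMT6 medium. With IL-6, Smc4 had 173, 176 and 171 CPM in Cysltr1-/- and 226, 232 and 229 CPM in WT cultures. Under GM-CSF alone, Smc4 had 196, 202 and 207 CPM in Cysltr1-/- and 247, 258 and 261 CPM in WT cultures. Smc4 thus overlapped between genotypes with EMT6 medium, and was lower in every Cysltr1-/- library with IL-6 and under GM-CSF alone. Its genotype difference under GM-CSF was -0.34 ± 0.05 and its IL-6 difference in WT -0.16 ± 0.04 (edgeR adjusted p = 4.01e-08 and 0.00747), and the IL-6 call was lost without a filter on low counts (-0.12). Ncapg, the other listed condensin I subunit, averaged 11.7 ± 1.38 CPM in Cysltr1-/- and 29.6 ± 0.955 CPM in WT cultures under GM-CSF alone (SD, n = 3 each).

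The genes of proteolysis and mitotic exit split most widely with EMT6 medium. Pttg1, which encodes securin, the inhibitor of separase, had 59.2, 56.3 and 67.0 CPM in Cysltr1-/- and 60.6, 66.1 and 61.3 CPM in WT cultures with EMT6 medium. With IL-6 it had 8.66, 9.03 and 8.08 CPM in Cysltr1-/- and 16.2, 15.1 and 15.7 CPM in WT cultures. Under GM-CSF alone it had 12.0, 13.2 and 12.4 CPM in Cysltr1-/- and 31.8, 29.3 and 35.7 CPM in WT cultures. Every EMT6 medium library exceeded every other library for Pttg1. EMT6 medium raised it over GM-CSF by 2.28 ± 0.08 in Cysltr1-/- and 0.94 ± 0.07 in WT marrow (edgeR adjusted p = 1.11e-28 and 4.98e-17), and over IL-6 by 2.82 ± 0.08 and 2.00 ± 0.07. Espl1, which encodes separase, had 27.3, 33.3 and 31.3 CPM in Cysltr1-/- and 27.2, 30.5 and 31.8 CPM in WT cultures with EMT6 medium. With IL-6, Espl1 had 11.9, 12.0 and 11.9 CPM in Cysltr1-/- and 20.02, 21.7 and 21.2 CPM in WT cultures. Under GM-CSF alone, Espl1 had 16.3, 17.5 and 16.7 CPM in Cysltr1-/- and 38.0, 36.9 and 34.6 CPM in WT cultures. Values of Espl1 separated the genotypes with IL-6 and under GM-CSF alone, Cysltr1-/- being lower, and overlapped with EMT6 medium. The EMT6 medium libraries of Espl1 were above the GM-CSF ones in Cysltr1-/- and below them in WT cultures on this scale.

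Cdc20, the activator of the anaphase-promoting complex, had 46.7, 51.3 and 46.7 CPM in Cysltr1-/- and 52.8, 50.5 and 59.2 CPM in WT cultures with EMT6 medium. With IL-6, Cdc20 had 19.7, 19.5 and 19.5 CPM in Cysltr1-/- and 39.3, 43.1 and 39.6 CPM in WT cultures. Under GM-CSF alone, Cdc20 had 27.7, 26.5 and 29.9 CPM in Cysltr1-/- and 73.6, 68.8 and 68.9 CPM in WT cultures. For Cdc20 the genotypes overlapped with EMT6 medium, and all Cysltr1-/- values were below the WT values in both other cultures. Ube2c, the ubiquitin-conjugating enzyme of that complex, had 20.4, 23.2 and 25.7 CPM in Cysltr1-/- and 30.6, 33.4 and 27.9 CPM in WT cultures with EMT6 medium. With IL-6, Ube2c had 22.1, 21.4 and 19.9 CPM in Cysltr1-/- and 45.2, 49.5 and 44.4 CPM in WT cultures. Under GM-CSF alone, Ube2c had 30.4, 31.4 and 30.9 CPM in Cysltr1-/- and 87.0, 84.4 and 85.9 CPM in WT cultures. Ube2c libraries of the 2 genotypes were apart in each culture, those of Cysltr1-/- marrow being lower. Both were lower by genotype under GM-CSF (-1.34 ± 0.06 for Cdc20 and -1.47 ± 0.06 for Ube2c, edgeR adjusted p = 5.69e-22 and 3.82e-23). With EMT6 medium in Cysltr1-/- marrow Cdc20 lay above its GM-CSF level and Ube2c below it (-0.43 ± 0.07, the lowest of the members), a fall that became a rise of 0.18 by library sizes alone. Without WT GM-CSF replicate 1, 2 or 3, WT EMT6 replicate 1, Cysltr1-/- GM-CSF replicate 1, 2 or 3, or Cysltr1-/- EMT6 replicate 2 or 3 the fall of Ube2c was -0.72 to -0.65. The exons of Ube2c share 22.8% of their bases with Tnnc2 on the other strand. Anln, which encodes the cleavage-furrow protein anillin, had 27.6, 31.5 and 26.7 CPM in Cysltr1-/- cultures with EMT6 medium against 33.4, 30.3 and 31.2 CPM under GM-CSF alone. Ect2, the exchange factor that activates RhoA at the furrow, averaged 12.6 ± 0.660 CPM in Cysltr1-/- and 31.4 ± 2.35 CPM in WT cultures under GM-CSF alone, and Cdca3, a trigger of mitotic entry, 17.9 ± 0.424 CPM in Cysltr1-/- and 49.3 ± 2.67 CPM in WT cultures (SD, n = 3 each).

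The response to EMT6 medium differed between genotypes for each mitosis gene. The difference of the log2 fold changes (Cysltr1-/- minus WT) was positive and called for all 44, among 13.2% of all tested genes called in that direction and 12.3% in the other, with a median of 1.19. Among genes of at least 5 CPM the shares were 29.2% lower and 20.9% higher. It was above 1, a 2-fold difference, for 34 genes. Birc5 and Ccnb2 had the largest differences (1.63 ± 0.10 and 1.57 ± 0.09, edgeR adjusted p = 5.19e-17 and 5.87e-18), and Smc4 and Mad2l1 the smallest (0.33 ± 0.06 and 0.69 ± 0.11, adjusted p = 8.68e-05 and 2.92e-06). All 44 were also called by library sizes alone, with DESeq2 size factors and with background reads subtracted. Without a filter on low counts 43 were, since the call of Smc4 was lost (0.10). Its difference of 0.33 was 0.20 without WT GM-CSF replicate 3 or Cysltr1-/- GM-CSF replicate 1.

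**Figure D4:**
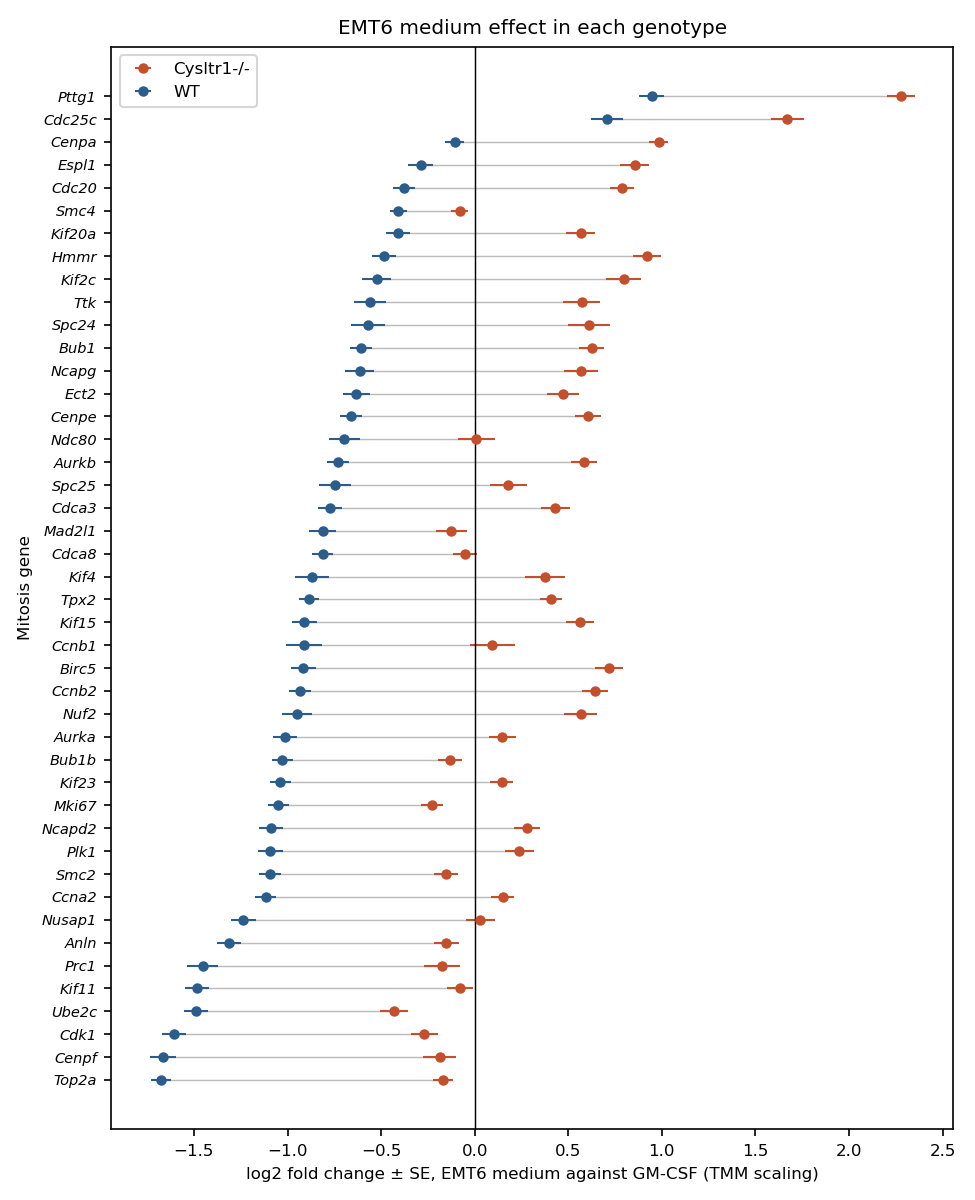
Log2 fold change with SE (TMM scaling) of EMT6 medium against GM-CSF alone for each mitosis gene, in Cysltr1-/- (red) and WT (blue) marrow, joined by a grey line. For all 44 genes the Cysltr1-/- point lies right of the WT point, by 0.33 for Smc4 to 1.63 for Birc5. By library sizes alone all 44 Cysltr1-/- points would lie above 0, on a scale where the median of all tested genes is 1.44.

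Between genotypes with EMT6 medium, on the TMM scale 18 of the 44 genes were lower and 2 higher in Cysltr1-/- marrow, among 19.8% and 32.3% of all tested genes, with a median of -0.13. By library sizes alone 3 were lower and 17 higher with a median of 0.11, among 2473 lower and 14312 higher of the 28334 tested genes (median 0.51). Of genes with a mean of at least 5 CPM, 46.2% lower and 15.3% higher were called. In a fit of only the 14441 genes of at least 5 CPM in some group, 4614 were lower and 4955 higher. The libraries of the 2 genotypes did not overlap for 17 genes on the lower and 3 on the higher side, among 20.4% and 36.7% of all tested genes. Mki67 and Kif20a had the largest falls (-0.63 ± 0.06 and -0.51 ± 0.07), and Cdc25c the largest rise (0.40 ± 0.08, edgeR adjusted p = 5.38e-05). Nuf2 differed by 0.17 ± 0.09 and was not called, though it was by library sizes alone (0.41). Cdc25c was at 0.25 without WT EMT6 replicate 1. The median of -0.13 became -0.25 to -0.22, and Nuf2 was at 0.0013 to 0.11, without WT GM-CSF replicate 1, 2 or 3, WT EMT6 replicate 1, Cysltr1-/- GM-CSF replicate 1, 2 or 3, or Cysltr1-/- EMT6 replicate 1, 2 or 3. The count of 18 became 28 to 35 without WT GM-CSF replicate 1, 2 or 3, Cysltr1-/- GM-CSF replicate 1, 2 or 3, or Cysltr1-/- EMT6 replicate 1 or 2, and the count of 2 became 1 without any one of the 18 libraries.

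Against IL-6, EMT6 medium gave higher levels of 43 mitosis genes and lower levels of 0 (0 also at an unadjusted p under 0.05 and with DESeq2) in Cysltr1-/- marrow, among 53.8% and 32.4% of all tested genes, with a median log2 fold change of 0.75, and 70% lower and 19.4% higher among genes of at least 5 CPM. The exception was Ube2c (0.12 ± 0.08, edgeR adjusted p = 0.140), at 20.4, 23.2 and 25.7 CPM with EMT6 medium and 22.1, 21.4 and 19.9 CPM with IL-6, which turned to -0.17 without Cysltr1-/- EMT6 replicate 3, where 1 member was called lower, and to -0.11 with DESeq2 size factors. Smc4 rose by 0.14 ± 0.05 (edgeR adjusted p = 0.00471), a sign that turned with DESeq2 size factors (-0.09), with DESeq2 (-0.09), without the low-count filter (-0.12), in a fit of the groups compared alone (-0.01), and without WT GM-CSF replicate 1, 2 or 3, WT EMT6 replicate 1, Cysltr1-/- GM-CSF replicate 1, 2 or 3, or Cysltr1-/- EMT6 replicate 1, 2 or 3 (-0.09 to -0.06). The call of Smc4 was also lost without Cysltr1-/- IL-6 replicate 3 (0.11). In WT marrow 13 genes were higher and 22 lower, among 48.1% and 33.8% of all tested genes, with a median of -0.13 that turned to 0.36 by library sizes alone (1.03 for all tested genes), and 71.9% lower and 16.7% higher among genes of at least 5 CPM. In a fit of only the 14441 genes of at least 5 CPM in some group, 6478 were lower and 6332 higher in Cysltr1-/- marrow. In WT marrow 5997 were lower and 6511 higher in that fit. Cdc25c and Pttg1 rose most there (1.23 ± 0.09 and 2.00 ± 0.07), and Kif11 and Cenpf fell most (-0.94 ± 0.06 and -0.88 ± 0.07). The count of 13 became 8, and the median -0.26 to -0.24, without WT GM-CSF replicate 1, 2 or 3, WT EMT6 replicate 1, Cysltr1-/- GM-CSF replicate 1, 2 or 3, or Cysltr1-/- EMT6 replicate 1, 2 or 3.

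The fall with IL-6 was smaller in Cysltr1-/- than in WT marrow for some of the genes. The difference of the IL-6 effects (Cysltr1-/- minus WT) was called positive for 19 and negative for 1, among 2.92% and 4.46% of all tested genes, with a median of 0.33. Among genes of at least 5 CPM the shares were 10.9% lower and 6.29% higher. Birc5 and Kif23 had the largest positive differences (0.67 ± 0.11 and 0.61 ± 0.08, edgeR adjusted p = 1.48e-05 and 5.12e-07). Bub1b had -0.09 ± 0.08 and was not called. Ndc80 alone was called negative (-0.40 ± 0.13, edgeR adjusted p = 0.0435). That call was lost by library sizes alone (-0.37) and without WT GM-CSF replicate 1 or 2, WT IL-6 replicate 2, WT EMT6 replicate 1, Cysltr1-/- GM-CSF replicate 2 or 3, Cysltr1-/- IL-6 replicate 1, 2 or 3, or Cysltr1-/- EMT6 replicate 2 or 3 (-0.43 to -0.29). The IL-6 and EMT6 comparisons of a genotype share its GM-CSF libraries, and so do the genotype differences built on them.

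Other mitotic genes were counted in the same way. From a list of 62 further genes, such as spindle, kinetochore and condensin components, 61 were called lower and the remaining gene was not called in Cysltr1-/- marrow under GM-CSF, with a median log2 fold change of -1.15. Of all tested genes 17.2% were lower and 10.1% higher there. Pimreg had -2.25 ± 0.10, Ccnf (cyclin F) -1.58 ± 0.07 and Tacc3, a spindle protein, -1.48 ± 0.06 (edgeR adjusted p = 1.85e-23, 2.24e-23 and 3.56e-24). With IL-6 41 of the 62 fell and 2 rose in Cysltr1-/- marrow, and 60 fell in WT marrow. Of all tested genes 8.78% fell and 5.55% rose in Cysltr1-/-, and 11.3% fell and 10.4% rose in WT marrow. With EMT6 medium 9 fell and 34 rose in Cysltr1-/- marrow, and 51 fell and 3 rose in WT marrow, on the TMM scale. Of all tested genes 32.9% fell and 54.3% rose in Cysltr1-/-, and 34.5% fell and 46.8% rose in WT marrow, so the 34 that rose are near the share of all genes. Without 1 library 9 to 12 fell and 25 to 33 rose in Cysltr1-/- marrow.

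Of 47 genes of the G1/S transition and DNA replication, 45 were lower and 1 higher in Cysltr1-/- marrow under GM-CSF, with a median of -0.78. The shares of all tested genes there were 17.2% lower and 10.1% higher. Rrm2, a subunit of ribonucleotide reductase, had -1.45 ± 0.06, and the replicative helicase genes Mcm5 and Mcm7 had -1.36 ± 0.06 and -1.28 ± 0.06 (edgeR adjusted p = 3.51e-23, 2.33e-22 and 6.67e-22). With IL-6 30 fell in Cysltr1-/- (median -0.31) and 45 in WT marrow (median -0.53), among 8.78% and 11.3% of all tested genes. EMT6 medium lowered 19 and raised 20 in Cysltr1-/-, and lowered 40 and raised 2 in WT marrow, on the TMM scale. Of all tested genes it lowered 32.9% and raised 54.3% in Cysltr1-/-, and lowered 34.5% and raised 46.8% in WT marrow. By library sizes alone 4 were lower and 35 higher in Cysltr1-/-, and 22 lower and 13 higher in WT marrow. Of the 28334 tested genes 5574 were lower and 19203 higher in Cysltr1-/-, and 6083 lower and 17317 higher in WT marrow on that scale. In Cysltr1-/- marrow 10 to 12 were higher without WT GM-CSF replicate 1, 2 or 3, WT EMT6 replicate 1, Cysltr1-/- GM-CSF replicate 1, 2 or 3, or Cysltr1-/- EMT6 replicate 1, 2 or 3. In WT marrow 1 was higher without any one of those 10 libraries or WT EMT6 replicate 3. Their difference between genotypes was called positive for 33, with a median of 0.66, against 44 of 44 and 1.19 for the mitosis genes.

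**Figure D5:**
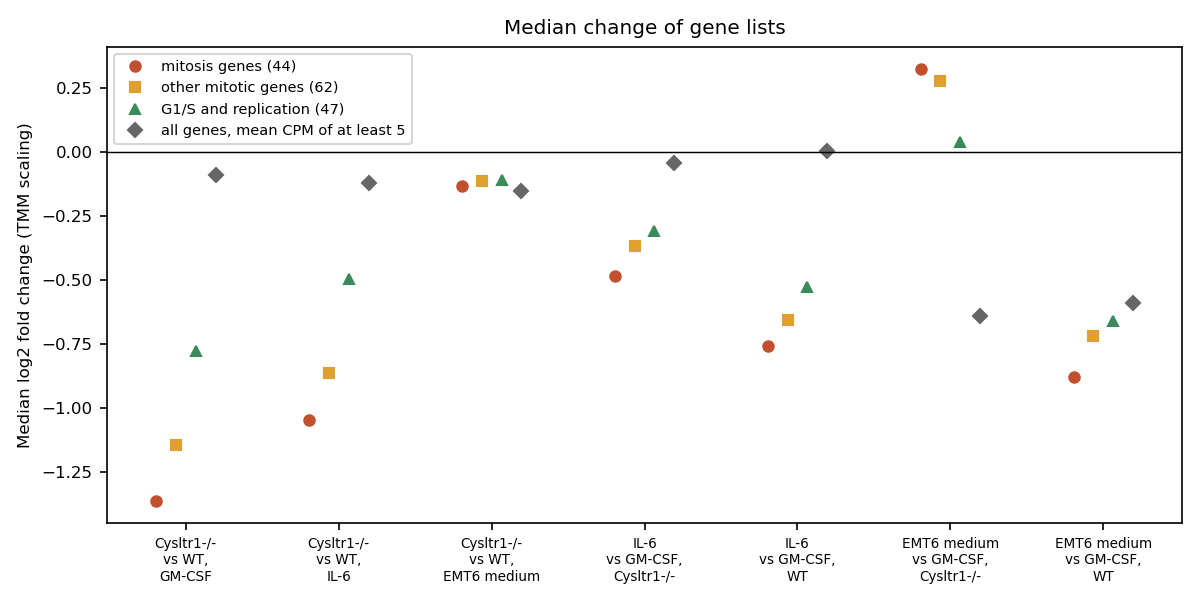
Median log2 fold change (TMM scaling) of the 44 mitosis genes, 62 other mitotic genes, 47 G1/S and replication genes and all genes with a mean of at least 5 CPM, in 7 comparisons. Under GM-CSF the genotype medians are -1.36, -1.15 and -0.78 for the lists and -0.09 for all such genes. The median of the mitosis genes for EMT6 medium in Cysltr1-/- marrow is 0.33 and is 0.06 to 0.31 without 1 library. By library sizes alone it would be 0.94, against 1.44 for all tested genes.

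Foxm1, the activator of G2 and M genes, differed between genotypes by -1.26 ± 0.09 under GM-CSF (edgeR adjusted p = 1.27e-15), and Mybl2, which encodes B-MYB, by -1.26 ± 0.09 (adjusted p = 6.63e-16). With IL-6 in WT marrow both fell (log2 fold changes -0.52 ± 0.08 and -0.87 ± 0.08, edgeR adjusted p = 3.41e-06 and 2.51e-11). With EMT6 medium Foxm1 differed from GM-CSF by -0.02 ± 0.11 in Cysltr1-/- and -0.76 ± 0.09 in WT marrow, and Mybl2 by -0.13 ± 0.11 in Cysltr1-/- and -1.02 ± 0.09 in WT marrow, where the Cysltr1-/- values turned to 0.60 and 0.48 by library sizes alone. Without 1 library the Cysltr1-/- value of Foxm1 ran from -0.33 to -0.04. That of Mybl2 was -0.40 to -0.31 without WT GM-CSF replicate 1, 2 or 3, WT EMT6 replicate 1, Cysltr1-/- GM-CSF replicate 1, 2 or 3, or Cysltr1-/- EMT6 replicate 1, 2 or 3. Foxm1 was then called lower without WT GM-CSF replicate 1, 2 or 3, WT EMT6 replicate 1, Cysltr1-/- GM-CSF replicate 2 or Cysltr1-/- EMT6 replicate 1, and Mybl2 without any one of the libraries named for it. Myc differed by -2.61 ± 0.06 with EMT6 medium in Cysltr1-/- and -2.37 ± 0.06 in WT marrow (edgeR adjusted p = 8.80e-34 and 1.47e-32). Of the 25 listed regulators 15 were lower and 4 higher by genotype under GM-CSF, and E2f8, a repressor of the E2F family, had -0.88 ± 0.07 (adjusted p = 7.98e-14). Of all tested genes 17.2% were lower and 10.1% higher in that comparison, and of those of at least 5 CPM 38.3% and 17.8%.

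Of 14 CDK inhibitors and antiproliferative genes 8 were lower and 4 higher by genotype under GM-CSF. The shares of all tested genes there were 17.2% lower and 10.1% higher, and of those of at least 5 CPM 38.3% and 17.8%. Cdkn2a and Cdkn2b, inhibitors of CDK4 and CDK6, and Gadd45a, a stress-induced growth arrest gene, had 2.71 ± 0.11, 1.61 ± 0.07 and 1.25 ± 0.06 (edgeR adjusted p = 6.23e-24, 1.56e-23 and 9.21e-23). Cdkn1a (p21) differed by 0.19 ± 0.05 and Cdkn1b (p27) by -0.66 ± 0.05 (edgeR adjusted p = 0.00118 and 5.75e-15). All 7 G1 cyclin and CDK genes listed were called lower with EMT6 medium in either genotype on the TMM scale, with medians of -1.55 in Cysltr1-/- and -1.5 in WT marrow. Of all tested genes 32.9% in Cysltr1-/- and 34.5% in WT marrow were called lower, and of those of at least 5 CPM 70.4% and 73.1%. By genotype under GM-CSF 4 were lower and 1 higher, with Ccnd2, a cyclin D, at 0.60 ± 0.06 (edgeR adjusted p = 3.87e-12).

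Granulocyte progenitor markers were lower in the same genotype and IL-6 comparisons. The summed level of Mpo, Elane, Prtn3, Ctsg, Ms4a3, Cebpe and Gfi1 was 141, 167 and 160.2 CPM in Cysltr1-/- and 242, 241 and 224 CPM in WT cultures with EMT6 medium. With IL-6 it was 327, 317 and 308 CPM in Cysltr1-/- and 994, 1051 and 988 CPM in WT cultures, and under GM-CSF alone 421, 417 and 427 CPM in Cysltr1-/- against 1683, 1672 and 1697 CPM in WT cultures. The Cysltr1-/- sums were below the WT sums in every culture. All 7 were called lower by genotype under GM-CSF and IL-6, and 5 with EMT6 medium, among 17.2%, 18.4% and 19.8% of all tested genes. IL-6 lowered 5 in Cysltr1-/- and 7 in WT marrow, among 8.78% and 11.3% of all tested genes. EMT6 medium likewise lowered 5 and 7 on the TMM scale, among 32.9% and 34.5% of all tested genes. It lowered 70.4% in Cysltr1-/- and 73.1% in WT marrow of genes of at least 5 CPM. Of 6 eosinophil markers 4 were lower by genotype under GM-CSF, and of 7 mature neutrophil markers, S100a8 and S100a9 among them, 7 were lower. The shares lower there were 17.2% of all tested genes and 38.3% of those of at least 5 CPM. None of the granulocyte progenitor markers was at 0 in any library. Markers of stem and early progenitors were Kit, Cd34, Flt3, Myb, Gata2, Hoxa9 and Meis1. Their Cysltr1-/- sum was 84.6% of the WT sum under GM-CSF alone, 110% with IL-6 and 117% with EMT6 medium. With IL-6 this sum was at 108% of the GM-CSF level in Cysltr1-/- and 82.8% in WT marrow. Means of Myb were lower in Cysltr1-/- than in WT cultures throughout. With EMT6 medium, on the TMM scale, the summed eosinophil markers were at 323% of the GM-CSF level in Cysltr1-/- and 143% in WT marrow. Epx and Prg2 carried that sum, and Il5ra also rose. Means of Siglecf, Ear1 and Ccr3 were lower with EMT6 medium in both genotypes (Siglecf 12.5 to 4.28 CPM in Cysltr1-/- and 28.9 to 2.32 CPM in WT cultures). B lineage markers were at 259% in Cysltr1-/- and 256% in WT marrow, though Vpreb1 and Rag1 were lower in both. Lower sums were those of mature neutrophil markers (44.9% in Cysltr1-/- and 41.6% in WT marrow), monocyte and macrophage markers (49.1% in Cysltr1-/- and 60.0% in WT marrow) and dendritic cell markers (10.5% in Cysltr1-/- and 13.9% in WT marrow). Within these groups the means of Cd68, Flt3 and Xcr1 were higher with EMT6 medium in both genotypes (Cd68 409 to 646 CPM in Cysltr1-/- and 510 to 998 CPM in WT cultures). So were Ly6g and Ly6c2 in Cysltr1-/- and Mmp8 in WT marrow. The part of these marker groups in the levels of the mitosis genes was not tested.

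Epithelial and stromal markers, which EMT6 cells could carry, were looked at in the EMT6 medium libraries. Krt8 averaged 2.25 CPM in Cysltr1-/- and 0.98 CPM in WT cultures with EMT6 medium, and Krt18 2.15 CPM in Cysltr1-/- and 2.73 CPM in WT cultures. Under GM-CSF alone Krt8 averaged 0.69 CPM in Cysltr1-/- and 0.41 CPM in WT cultures. Col1a1 averaged 19.8 CPM in Cysltr1-/- and 9.22 CPM in WT cultures with EMT6 medium, and Cdh1 38.9 CPM in Cysltr1-/- and 28.2 CPM in WT cultures, against Cdh1 means of 1080.2 CPM in Cysltr1-/- and 830.9 CPM in WT cultures under GM-CSF alone. Of the 10 epithelial and stromal markers 7 were called higher and 2 lower with EMT6 medium in Cysltr1-/-, and 6 higher and 3 lower in WT marrow, on the TMM scale. Of all tested genes 54.3% were called higher and 32.9% lower in Cysltr1-/-, and 46.8% higher and 34.5% lower in WT marrow, so these counts are near those shares. The summed level of the 10 markers was 106 to 144 CPM in Cysltr1-/- and 88.0 to 91.5 CPM in WT libraries with EMT6 medium. The part of these markers in the levels of the mitosis genes was not tested.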

How the data were processed

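Poly(A) RNA of 18 marrow cultures was sequenced, and the authors deposited raw counts per gene for each library. Per the submitters' processing notes, HISAT2 2.1.0 and HTSeq 0.13.5 were used with build mm10. The strand setting is not given in the sources used here, and 13 of the 44 genes share exon bases with another gene, so their counts are uncertain. Summary lines that name no gene, among them reads in no feature, stayed out of library sizes and tests. Groups came from the sample titles.

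All 18 libraries entered 1 fit with a mean per group (edgeR 4.0.16 in R 4.3.3, quasi-likelihood F test, TMM, filterByExpr, Benjamini-Hochberg over 28334 genes, threshold 0.05), checked on simulated data. CPM uses TMM effective library sizes. Named genes were a fixed set of 22 members, the extremes of each comparison and members called against the majority. The members and lists were chosen with earlier results of these data known. Alternatives were DESeq2 1.42.0, other scalings and filters, background subtraction, a replicate block, fits of only the groups compared, and leaving out each library. The lowest count of a member in a library was 95. A deposited table of normalized values was not used.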

Additional observations from a re-analysis of the deposited data

Results flagged for a closer look

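The effect of EMT6 medium on the mitosis genes differed between genotypes by the interaction test of the edgeR fit (Cysltr1-/- minus WT), which marked 44 of the 44 members, 59 of the 62 other mitotic genes and 33 of the 47 G1/S genes. Birc5 differed by 1.63, Ccnb2 by 1.57, Mad2l1 by 0.69 and Smc4 by 0.33 on the log2 scale. The same test for IL-6 marked 20 members, 28 other mitotic genes and 18 G1/S genes, with Birc5 at 0.67, Kif23 at 0.61 and Ndc80 at -0.40. Of all tested genes the EMT6 medium test marked 13.2% as positive and 12.3% as negative, and the IL-6 test 2.92% and 4.46%.

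Reads outside annotated features, which enter no comparison, were 50.2% of reads in Cysltr1-/- and 36.2% in WT cultures with EMT6 medium, above the 14.2% to 19.5% of the cultures without that medium. Their part in the levels of the mitosis genes was not tested beyond the subtraction of the expected background.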

How the results depend on the processing

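The falls by genotype under GM-CSF and IL-6, the falls with IL-6 in both genotypes and the genotype difference in the effect of EMT6 medium kept their direction, and their member counts moved by less than 1.5 times, under every alternative run. The sums and levels with EMT6 medium depend on the scaling, since TMM, DESeq2 size factors and library sizes place those libraries differently. Single-library omissions also lowered the group size of the count filter, so that more genes were tested. The cause of the other changes was not tested, and RNA amounts per cell are not known here.

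By library sizes alone the summed CPM was 2200.1 in Cysltr1-/- and 2056.1 in WT cultures with EMT6 medium, 930.1 in Cysltr1-/- and 1641.1 in WT cultures with IL-6, and 1218.4 in Cysltr1-/- and 2645.5 in WT cultures under GM-CSF. With background subtracted it was 1437.4 in Cysltr1-/- and 1657.9 in WT cultures with EMT6 medium, 965.5 in Cysltr1-/- cultures with IL-6, and 1299.8 in Cysltr1-/- cultures under GM-CSF. Counting only the bases before the start, 43.2% of mitosis promoters held a CHR.

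With EMT6 medium against GM-CSF in WT marrow, 6 members were higher by library sizes alone, and Cdkn1b turned to 0.17 by library sizes alone and 0.071 with a minimum mean of 5 CPM. In Cysltr1-/- marrow the count of lower members was 15 with DESeq2, with its size factors and without a low-count filter, 13 with only the groups compared, 2 with background subtracted, and 0 by library sizes alone and with a minimum of 5 CPM, while 44 were higher by library sizes alone. On that last scale 19203 of the 28334 tested genes were higher. Leaving out 1 library gave 9 to 15 lower and 21 to 24 higher.

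In that comparison the following log2 fold changes turned positive by library sizes alone: Ube2c 0.18, Cdk1 0.34, Mki67 0.39, Cenpf 0.43, Top2a 0.45, Anln 0.46, Smc2 0.46, Bub1b 0.48, Foxm1 0.60, Mybl2 0.48 and Cdkn1a 0.077. With a minimum of 5 CPM these were Cdk1 0.063, Mki67 0.11, Cenpf 0.14, Top2a 0.17, Anln 0.18, Smc2 0.18, Bub1b 0.20 and Foxm1 0.32. With background subtracted these were Mki67 0.039, Top2a 0.093, Smc2 0.059 and Bub1b 0.10.

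Against IL-6 in WT marrow, 5 members were lower and 31 higher by library sizes alone, 8 and 28 with a minimum of 5 CPM, and 8 were higher with DESeq2, with its size factors and without a filter. The median was 0.36, 0.25 and, with background subtracted, 0.077. Leaving out 1 library gave 19 to 25 lower and 8 to 12 higher. In Cysltr1-/- marrow 1 member was lower without a filter and with background subtracted, and 0 to 1 lower and 34 to 43 higher without 1 library. Smc4 was at -0.085 with DESeq2 and with its size factors, -0.12 without a filter, -0.013 with only the groups compared and -0.091 to 0.13 without 1 library, and Ube2c at -0.17 to 0.13.

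Between genotypes with EMT6 medium, 3 members were lower and 17 higher by library sizes alone (median 0.11), 35 lower without a filter, and 11 lower and 5 higher with a minimum of 5 CPM. A single member was higher (1) with DESeq2, with its size factors, without a filter, with only the groups compared and with background subtracted. Leaving out 1 library gave 12 to 35 lower and 1 higher. In the difference of IL-6 effects 0 members were lower by library sizes alone, and 0 to 1 lower and 15 to 23 higher without 1 library.

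Replicate numbers showed no pairing over all groups: correlations of same-numbered deviations ran from -0.10 to 0.13, with a median of 0.01, and 1 of 45 exceeded 0.1. Those of other numbers ran from -0.11 to 0.11, with a median of 0.002, and 1 of 90 exceeded 0.1. Pairs across genotypes are included, so these values cannot exclude a pairing within a genotype. With a replicate block 1 member was higher in Cysltr1-/- than in WT marrow with EMT6 medium, against 2 without it.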
